A study of Homo sapiens with 12 samples.

Results

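The 10 genes described here encode nucleolar proteins that build ribosomes: NPM1, NCL, FBL, DKC1, NOP56, NOP58, NOLC1, POLR1A, GNL3 and BOP1. They were chosen by Ensembl identifier, cut at the version, and took their symbols from the same list, since the deposited table holds no symbols. All 10 were found among the 19580 genes of the table, and all 10 passed the filter on low values that left 11510 genes for testing (at least 1 RPKM in at least 3 libraries).

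Ribosome footprints, the stretches of mRNA that a ribosome shields from nuclease, were read in HAP1, a human cell line with a near-haploid genome that descends from KBM-7 (genotype WT). There were 4 groups of 3 biological replicates. In the 4SU+UVA group, cells received the photoreactive nucleoside 4-thiouridine (4SU) at 5 uM for 18 h and then UVA light at 6 kJ per square metre, a treatment that crosslinks protein to RNA. The 4SU group received the nucleoside alone, the UVA group the light alone, and the untreated group neither. The protocol gives 30 min of recovery before harvest, recorded here for the 4SU+UVA and UVA groups only. All groups are 1 cell line, and its identity was not checked against marker genes here, since the table holds no symbols. Lysates contained cycloheximide, which arrests ribosomes, and footprints of 15 to 70 nt were kept. The table gives RPKM, reads per kilobase of transcript scaled to the library total. It divides by the length of the transcript rather than of its coding part, so comparisons of level between genes carry that limit. Library totals were 1899854 to 5526950 reads in 4SU+UVA, 3991129 to 4514227 in 4SU, 3358145 to 5425688 in UVA and 3785480 to 5832366 in untreated libraries. The shallowest library was 4SU+UVA replicate 2.

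Ribosomes are made in the nucleolus, where RNA polymerase I transcribes the large ribosomal RNA precursor. Small nucleolar RNAs (snoRNAs) guide its chemical modification, the box C/D class for ribose methylation and the box H/ACA class for pseudouridylation, each in a particle with its own core proteins. Assembly factors and nucleolar chaperones then help to fold and cleave the precursor and load ribosomal proteins onto it. Several nucleolar genes also carry snoRNA genes within their introns. In the RefSeq annotation of GRCh38.p14, 5 of the 10 genes had snoRNA genes within their span, against 2.62% of 20056 protein-coding genes. NOP56 and GNL3 each held 5, NOP58 held 4, NCL held 3 and DKC1 held 2.

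The promoters of the genes with the lowest 4SU+UVA level relative to untreated cells (POLR1A and NCL), of the one that was higher (NPM1) and of one that did not pass the test (FBL) are printed, since the members did not move alike. RefSeq promoter sequence of GRCh38.p14 was searched for 7 of the 10 genes. NOP58 and NOLC1 had no entry, and BOP1 was left out of the search. Each line covers 120 bases before the annotated start and 30 from it, 5′ to 3′ on the gene's strand, with motif matches in capitals. The motifs searched on both strands were the E-box CACGTG, the CCAAT box, the GC box GGGCGG and the TATA box TATAAA, none of which overlap another in these lines.
POLR1A, chr2:86105857-86106006, minus strand: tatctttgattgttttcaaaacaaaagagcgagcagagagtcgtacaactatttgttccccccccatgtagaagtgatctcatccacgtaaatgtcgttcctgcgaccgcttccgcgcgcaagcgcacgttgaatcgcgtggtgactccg
NCL, chr2:231464455-231464604, minus strand: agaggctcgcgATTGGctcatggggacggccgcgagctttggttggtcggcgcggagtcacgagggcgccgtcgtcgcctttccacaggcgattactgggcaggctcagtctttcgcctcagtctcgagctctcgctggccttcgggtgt
NPM1, chr5:171387729-171387878, plus strand: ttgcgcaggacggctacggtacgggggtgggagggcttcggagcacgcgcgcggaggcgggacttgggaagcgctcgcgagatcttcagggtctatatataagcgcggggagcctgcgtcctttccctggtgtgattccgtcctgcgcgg
FBL, chr19:39846350-39846499, minus strand: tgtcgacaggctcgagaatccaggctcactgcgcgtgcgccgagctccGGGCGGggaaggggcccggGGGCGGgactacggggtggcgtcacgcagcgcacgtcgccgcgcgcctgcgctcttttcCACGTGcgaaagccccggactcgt

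In these windows FBL held 2 GC boxes and an E-box, NCL held a CCAAT box on the opposite strand (ATTGG), and POLR1A and NPM1 held none of the 4 motifs as spelled. Only the exact letters were searched, so other spellings, such as tatataag in the NPM1 line, were not counted. NPM1 had 2 annotated starts, of which the first listed is printed. The window of this size at the other held none of the 4 motifs either. Over all 35116 RefSeq promoters, windows of this size held the E-box in 4.52%, the CCAAT box in 22.4%, the GC box in 36.1% and the TATA box in 6.21%. Within the full window of 300 bases, the E-box was found in 2 of the 7 genes (FBL and GNL3) against 7.26% of all promoters, the CCAAT box in 4 against 34.6%, the GC box in 5 against 44.95%, and the TATA box in 0 against 11.5%. A gene counted if any of its listed windows held the motif, and NPM1 and GNL3 had 2 windows each. The percentages are per single promoter, so the counts and percentages are not like measures. A match is a description of letters, and no match says only that these letters are not in the window.

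Levels of the members spanned, in untreated cells, a 36.1-fold range of level on the RPKM scale. NCL averaged 797 ± 6.48 RPKM (SD, n = 3), followed by FBL, NPM1, NOP56, GNL3, NOP58, NOLC1, DKC1 and BOP1, with POLR1A last at 22.1 ± 1.32 RPKM. GNL3 and NOP58 were the only neighbours in that order whose untreated libraries overlapped. The range and the order depend on division by transcript length. As a share of untreated reads, POLR1A (0.0275%) was above BOP1 (0.0264%), and NCL took 0.313%. In 4SU+UVA cells FBL (480 RPKM) came ahead of NCL (457 RPKM) with overlapping libraries, and NOP58, GNL3, DKC1 and NOLC1 each overlapped their neighbour in the order.

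Reads behind a member's value, recovered from the steps of the RPKM values, ran from 241 to 18248 per library. The counting error was 0.816 to 5.28% of the value, against a spread between replicates of 0.441 to 20.9% (CV, median 3.41%). The libraries carried no molecular identifiers in the protocol, so this error covers counting only.

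**Figure D1:**
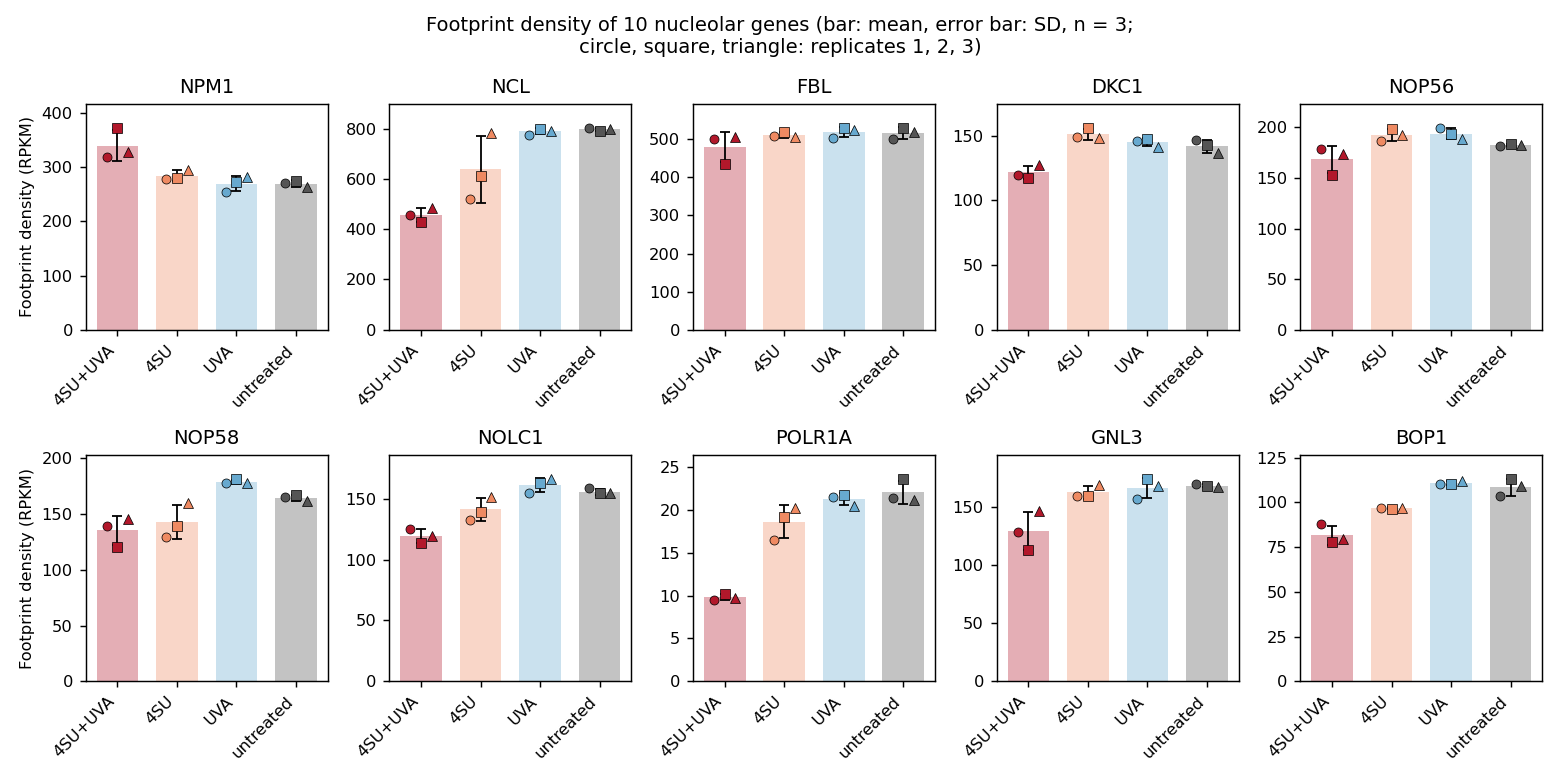
Ribosome footprint level (RPKM, linear axis from 0) of each of the 10 genes, with a point per library, for 4SU+UVA, 4SU, UVA and untreated cells, and a bar at the mean of 3 replicates with its SD. The 4SU+UVA points lie above the untreated ones for NPM1 and below them for 8 genes, and those of FBL overlap.

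Crosslinking treatment was compared with no treatment first. Of the 10 members, 1 rose (NPM1) and 7 fell (POLR1A, NCL, BOP1, NOLC1, GNL3, NOP58 and DKC1) in 4SU+UVA cells, while FBL and NOP56 did not pass limma's test at an adjusted p of 0.05. Over all 11510 genes 59% passed, 40.6% as higher and 18.4% as lower, so falls were the less frequent direction there. With each library centred on its median gene, 27% of all genes were higher and 25.1% lower, and after quantile normalisation 26.2% and 25.3%. The 4SU+UVA and untreated libraries did not overlap for 1 member above and 8 below, against 43.6% of all genes above and 20.2% below. The median log2 difference was -0.34 over the members and 0.23 over all genes tested. Below, differences are on the log2(RPKM + 0.5) scale, with the standard error and the Benjamini-Hochberg adjusted p of the fit across all genes. A change in footprint level does not separate the amount of an mRNA from the number of ribosomes on it. Levels are scaled to each library's total, so they are relative to all other footprints and give no amount per cell. 4SU+UVA replicate 2, the shallowest library, was the lowest of its group for 8 of the 10 genes. No such count was made over all genes. Leaving out any 1 library gave 8 or 9 members past the threshold, where 35.7 to 41.2% of all genes were higher and 16.8 to 18.5% lower.

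NPM1 (ENSG00000181163.14, chr5:171387116-171410900) and NCL (ENSG00000115053.17, chr2:231453531-231464484) are abundant nucleolar phosphoproteins that bind ribosomal RNA and act as chaperones of assembly, and they went opposite ways. NPM1 measured 318, 372 and 327 RPKM in 4SU+UVA libraries, 278, 279 and 295 RPKM in 4SU libraries, 254, 272 and 281 RPKM in UVA libraries and 270, 275 and 264 RPKM in untreated libraries. Every 4SU+UVA library lay above all 9 others. NPM1 was higher by 0.33 ± 0.06 (SE) than in untreated cells (adjusted p = 0.000484, limma). NCL measured 457, 429 and 486 RPKM in 4SU+UVA libraries, 520, 612 and 783 RPKM in 4SU libraries, 775, 799 and 791 RPKM in UVA libraries and 803, 790 and 797 RPKM in untreated libraries. Its 4SU+UVA libraries were below all others, and the 4SU libraries were spread between the untreated level and that of 4SU+UVA. The 4SU+UVA log2 difference of NCL was -0.80 ± 0.10 (adjusted p = 1.38e-05, limma). NPM1 has 50 pseudogenes by symbol in RefSeq, and reads shared with them cannot be told apart from its own here. When each library was centred on its median gene, the NPM1 difference became 0.16 and no longer passed (adjusted p = 0.0555). By another measure, with the median log2 difference of all genes tested subtracted, the difference was 0.09 for NPM1 and -1.04 for NCL.

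FBL (ENSG00000105202.9, chr19:39834458-39846379), NOP56 (ENSG00000101361.17, chr20:2652632-2658393) and NOP58 (ENSG00000055044.11, chr2:202265763-202303661) are core proteins of the box C/D particle, FBL being its methyltransferase. FBL measured 500, 435 and 505 RPKM in 4SU+UVA libraries, 509, 520 and 505 RPKM in 4SU libraries, 503, 530 and 523 RPKM in UVA libraries and 500, 528 and 520 RPKM in untreated libraries. The groups overlapped except that the 4SU+UVA libraries lay just below those of 4SU. The FBL difference to untreated cells was -0.11 with a 95% interval of -0.23 to 0.02 (adjusted p = 0.12, limma). NOP56 measured 178, 153 and 174 RPKM in 4SU+UVA libraries, 186, 198 and 193 RPKM in 4SU libraries, 199, 194 and 188 RPKM in UVA libraries and 181, 183 and 183 RPKM in untreated libraries. All 3 of its 4SU+UVA libraries were the lowest, with a difference to untreated cells of -0.12 (adjusted p = 0.113, limma). Under centring on the median gene both passed as lower, FBL at -0.28 and NOP56 at -0.29, as they did after quantile normalisation, FBL at -0.23 and NOP56 at -0.15. NOP56 also passed without 4SU+UVA replicate 1 (-0.16, adjusted p = 0.0461). NOP58 measured 139, 121 and 146 RPKM in 4SU+UVA libraries, 129, 140 and 160 RPKM in 4SU libraries, 178, 181 and 178 RPKM in UVA libraries and 165, 167 and 162 RPKM in untreated libraries. Its 4SU+UVA and 4SU libraries overlapped each other and lay below both other groups. NOP58 fell by 0.29 ± 0.08 against untreated cells (adjusted p = 0.00643, limma).

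DKC1 (ENSG00000130826.18, chrX:154762864-154777689), the pseudouridine synthase of the H/ACA particle, and NOLC1 (ENSG00000166197.17, chr10:102152389-102163870), a phosphoprotein that binds snoRNA particles in the nucleolus and Cajal bodies, both fell. DKC1 measured 120, 117 and 128 RPKM in 4SU+UVA libraries, 149, 156 and 148 RPKM in 4SU libraries, 146, 147 and 141 RPKM in UVA libraries and 146, 143 and 137 RPKM in untreated libraries. The 4SU+UVA libraries were the 3 lowest. The difference to untreated cells was -0.22 ± 0.06 (adjusted p = 0.00359, limma). NOLC1 measured 125, 114 and 120 RPKM in 4SU+UVA libraries, 133, 140 and 151 RPKM in 4SU libraries, 155, 163 and 166 RPKM in UVA libraries and 159, 155 and 155 RPKM in untreated libraries. The 4SU libraries of NOLC1 lay below every UVA and untreated library and above every 4SU+UVA library. NOLC1 fell by 0.39 ± 0.06 in 4SU+UVA cells (adjusted p = 0.000109, limma).

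POLR1A (ENSG00000068654.17, chr2:86020216-86105886), the largest subunit of RNA polymerase I, had the lowest RPKM and the greatest fall of the 10. It measured 9.48, 10.2 and 9.76 RPKM in 4SU+UVA libraries, 16.5, 19.2 and 20.2 RPKM in 4SU libraries, 21.5, 21.7 and 20.5 RPKM in UVA libraries and 21.4, 23.6 and 21.2 RPKM in untreated libraries. Every 4SU+UVA library of POLR1A lay below all 9 others. The log2 difference to untreated cells was -1.13 ± 0.09 (adjusted p = 2.12e-07, limma), and 1.92% of the genes tested had a difference below it. At 241 to 654 reads per 4SU+UVA library it was the member with the fewest reads.

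GNL3 (ENSG00000163938.17, chr3:52685920-52694497), a nucleolar GTPase also called nucleostemin, and BOP1 (ENSG00000261236.8), which acts in large-subunit rRNA processing, both fell. GNL3 measured 128, 113 and 146 RPKM in 4SU+UVA libraries, 159, 159 and 168 RPKM in 4SU libraries, 157, 173 and 168 RPKM in UVA libraries and 169, 168 and 167 RPKM in untreated libraries. Its 4SU+UVA libraries varied more than those of the other groups but were all lower. GNL3 had a log2 difference of -0.39 ± 0.08 (adjusted p = 0.000739, limma). BOP1 measured 87.9, 77.8 and 79.4 RPKM in 4SU+UVA libraries, 97.0, 96.2 and 97.1 RPKM in 4SU libraries, 110, 110 and 112 RPKM in UVA libraries and 104, 113 and 109 RPKM in untreated libraries. The 3 groups of 4SU+UVA, 4SU and untreated libraries did not overlap. BOP1 fell by 0.41 ± 0.06 in 4SU+UVA cells (adjusted p = 6.08e-05, limma).

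For 4SU alone against untreated cells, NCL fell by 0.34 ± 0.10 (adjusted p = 0.0386, limma) and the other 9 members did not pass, where 14.4% of all genes passed, 11.3% as higher and 3.12% as lower. The 3 4SU libraries stood at -0.62, -0.38 and -0.02 from the untreated mean of NCL on the log2 scale, in the order of replicates 1, 2 and 3. Without 4SU replicate 1 the NCL difference was -0.20 (adjusted p = 0.164), and without 4SU replicate 3 it was -0.50. The call was also lost without 4SU replicate 2, UVA replicate 2 or any untreated library, with an adjusted p of at most 0.164. BOP1 (-0.16), NOP58 (-0.21), NOLC1 (-0.14) and POLR1A (-0.24) also had every 4SU library below every untreated one. NPM1, DKC1 and NOP56 had every 4SU library above them. Non-overlap in those directions was seen for 10.1% of all genes below and 25.1% above. Within the 4SU group, replicate 1 was the lowest library for 7 of the 10 genes and replicate 3 the highest for 7. No such count was made over all genes. The median gene tested stood at 3.54, 3.50 and 3.47 on the log2 scale in 4SU replicates 1, 2 and 3. Without replicate 3, NOP58 and NOLC1 passed too, and without 4SU+UVA replicate 2 NOP58 did. With each library centred on its median gene, 5 members passed as lower in 4SU cells (NCL, NOP58, NOLC1, POLR1A and BOP1), where 9.38% of all genes were lower and 5.56% higher. After quantile normalisation the NCL call was lost (adjusted p = 0.0709, limma), where 4.32% of all genes were lower and 5.89% higher.

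UVA alone against untreated cells gave 0 members past limma's threshold and 0 at an unadjusted p under 0.05, where 0.652% of all genes passed, 0.278% as higher and 0.374% as lower. Under median centring 0.165% of all genes were higher and 0.417% lower, and after quantile normalisation 0.191% and 0.174%. The largest difference was that of NOP58, at 0.12, with a 95% interval of -0.05 to 0.29 (adjusted p = 0.751, limma). NOP56 and NOP58 had all UVA libraries above all untreated ones, which 12.8% of all genes also had, and no member had them all below, which 3.93% of all genes had.

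Adding light to cells that carried 4SU (4SU+UVA against 4SU) gave 1 rise and 7 falls among the members, where 44% of all genes passed, 25% as higher and 19% as lower. Libraries did not overlap for 1 member above and 8 below, against 29.6% and 21.4% of all genes. NPM1 rose by 0.25 ± 0.06 (adjusted p = 0.00481, limma), and after quantile normalisation the difference was 0.14 and did not pass (adjusted p = 0.0684). POLR1A fell by 0.89 ± 0.09 (adjusted p = 3.48e-06) and NCL fell by 0.46 ± 0.10 (adjusted p = 0.00215). The others that fell were GNL3 (-0.33), DKC1 (-0.31), BOP1 and NOLC1 (both -0.24) and NOP56 (-0.19). NOP56 lost its call without 4SU+UVA replicate 2 (adjusted p = 0.0825) or 4SU replicate 2 (adjusted p = 0.0723), without the variance trend (adjusted p = 0.0609) and with only those groups fitted (adjusted p = 0.0761). FBL (-0.09) and NOP58 (-0.08) did not pass, and after quantile normalisation FBL did (-0.22, adjusted p = 0.00323, limma). Adding 4SU to irradiated cells (4SU+UVA against UVA) gave 1 rise and 8 falls, with FBL the exception at -0.11 (adjusted p = 0.106, limma), where 54.4% of all genes passed, 34.7% as higher and 19.8% as lower. Libraries did not overlap for 1 member above and 8 below, against 37.9% and 21.5% of all genes. FBL passed as lower under median centring (-0.20, adjusted p = 0.014) and quantile normalisation (-0.25, adjusted p = 0.0011), so that 9 members were lower in both, while 23.3% and 24.5% of all genes were lower and 27.3% and 25.2% higher. Against UVA cells NPM1 was higher by 0.33, and the log2 difference was -1.08 for POLR1A, -0.79 for NCL, -0.44 for BOP1, -0.43 for NOLC1, -0.41 for NOP58, -0.37 for GNL3, -0.25 for DKC1 and -0.20 for NOP56. NOP58 passed against UVA and untreated cells and not against 4SU cells. The comparisons of 4SU+UVA cells share the 4SU+UVA libraries.

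The interaction asks whether the effect of UVA differed between cells with 4SU and cells without it. It was below 0 for 7 members and above 0 for NPM1 at an adjusted p under 0.05, while FBL and NOP58 did not pass, where 24.8% of all genes passed, 14.1% below 0 and 10.7% above. POLR1A (-0.84 ± 0.13, adjusted p = 0.000353, limma) and DKC1 (-0.34 ± 0.08, adjusted p = 0.0058) passed in every fit that left out 1 of the 12 libraries. The count of 8 members became 6, 2 and 7 without 4SU+UVA replicates 1, 2 and 3, and 6, 3 and 6 without 4SU replicates 1, 2 and 3. Without UVA replicates 1, 2 and 3 it was 4, 2 and 4, and without untreated replicates 1, 2 and 3 it was 3, 3 and 2. In these fits 8.68 to 10.6% of all genes passed above 0 and 11.6 to 14.1% below. Counts of 2 or 3 members were therefore near the share over all genes. After quantile normalisation FBL passed as well (-0.24, adjusted p = 0.0244, limma) and NPM1 did not (adjusted p = 0.161).

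**Figure D2:**
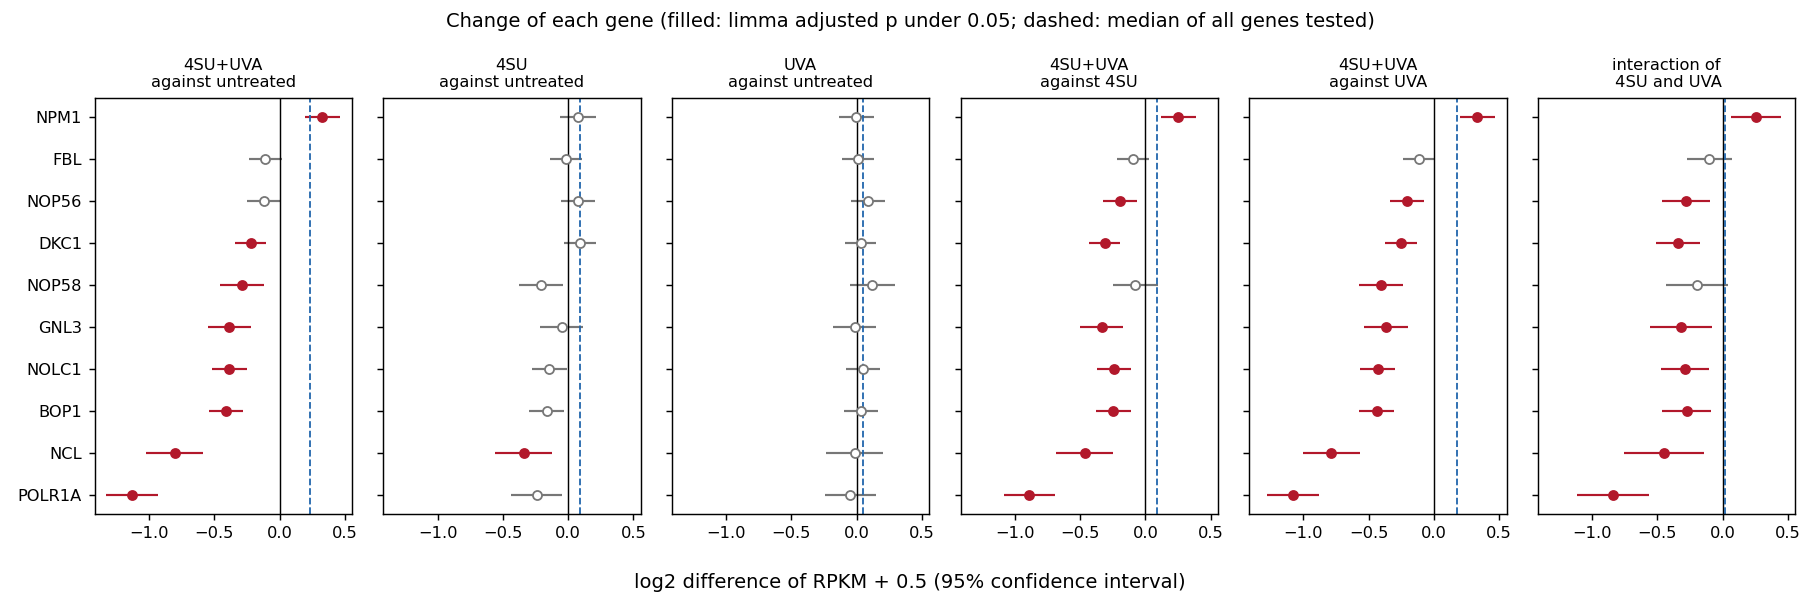
Log2 difference of each of the 10 genes in the 6 comparisons, with its 95% interval, on the log2(RPKM + 0.5) scale; filled points passed an adjusted p of 0.05 (limma), and the dashed line is the median of all genes tested. POLR1A and NCL lie lowest and NPM1 highest in the comparisons of 4SU+UVA cells.

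As a share of all reads, the 10 genes together took 0.476 ± 0.0231% in 4SU+UVA libraries, 0.589 ± 0.0633% in 4SU libraries, 0.668 ± 0.0107% in UVA libraries and 0.664 ± 0.00340% in untreated libraries (SD, n = 3 each). The 4SU+UVA libraries did not overlap those of any other group, with an exact two-sided permutation p of 0.1, the smallest that 3 against 3 allows (0.125 after adjustment over 5 comparisons). NCL made up 37.6% of the members' reads in 4SU+UVA cells and 47.1% in untreated cells. Without NCL the 4SU+UVA share differed from the untreated one by -0.054 percentage points, and with it by -0.187.

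The ratio of NPM1 to NCL on the RPKM scale was 0.746 ± 0.106 in 4SU+UVA cells, 0.456 ± 0.0792 in 4SU cells, 0.341 ± 0.0134 in UVA cells and 0.338 ± 0.00888 in untreated cells (SD, n = 3). This pair was chosen after its values were seen, so no test is given. Within the box C/D particle the ratio of NOP56 to FBL averaged 0.351, 0.376, 0.374 and 0.353 in 4SU+UVA, 4SU, UVA and untreated cells, and its 4SU libraries lay above all 4SU+UVA and all untreated ones. The ratio of NOP58 to NOP56 was 0.803, 0.743, 0.925 and 0.903 in the same groups. Its 4SU+UVA libraries (0.781 to 0.837) and 4SU libraries (0.694 to 0.829) lay below all untreated ones (0.885 to 0.915). The ratios of NCL to FBL and of POLR1A to FBL were lower in every 4SU+UVA library than in any other library. Further ratios were computed and are not given, so these separations are a description.

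**Figure D3:**
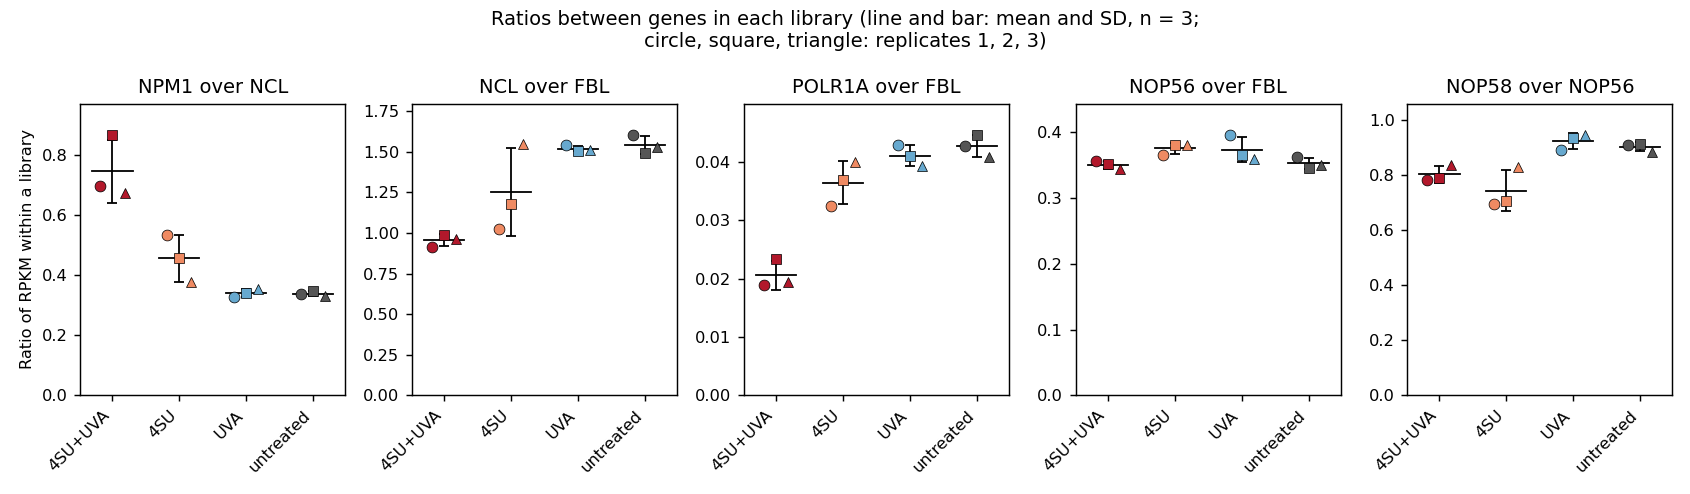
Ratios between pairs of the genes on the RPKM scale, with a point per library and a bar at the mean of 3 replicates with its SD, for 4SU+UVA, 4SU, UVA and untreated cells. The NPM1 to NCL ratio is highest in 4SU+UVA libraries.

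The members' log2 differences in 4SU+UVA cells were lower for longer transcripts. NPM1 (1237 nt), FBL (1125 nt) and NOP56 (1913 nt) had the highest differences and POLR1A (12480 nt) the lowest, with a Spearman rho of -0.855 over the 10 genes and -0.8 without POLR1A. These genes are not independent replicates, and the value is a description. No such value was computed over all genes tested, so the relation is not shown to be particular to these 10. The part of length in the members' differences was not tested. The lengths were recovered from the steps of the RPKM values, and the median gene tested had 2616.5 nt.

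**Figure D4:**
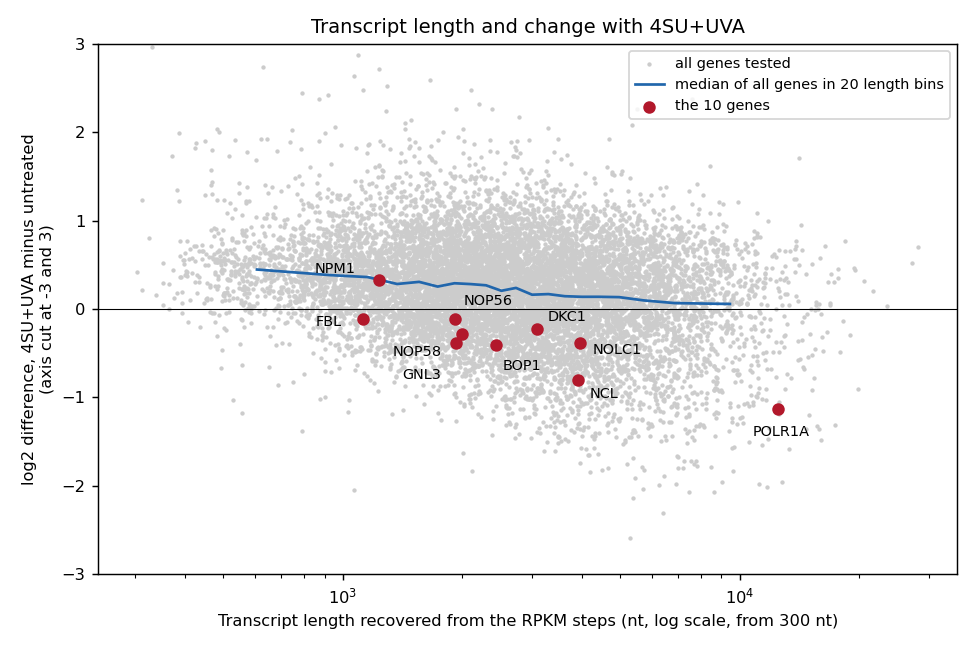
Log2 difference of 4SU+UVA against untreated cells by transcript length (nt, log axis) for the 10 genes (red), over all genes tested in grey and their median by length bin in blue. NPM1 lies highest and POLR1A, the longest transcript, lies lowest.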

How the data were processed

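Ribosome footprints were measured in 12 libraries, 3 per group, grouped by the sample titles and recorded treatment. The authors deposited 1 table of RPKM values per gene. The submitters' processing notes name STAR 2.7.10a and hg38. The counting tool and annotation version were not given in the sources used here. No replicates were pooled in the deposited columns.

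Log2(RPKM + 0.5) values were fitted with limma 3.58.1 under R 4.3.3, with a variance trend in eBayes, in 1 model of 4 group means over the 12 libraries with 8 residual degrees of freedom. A gene entered the fit at 1 RPKM or more in 3 or more libraries. The two-sided p-values were adjusted by Benjamini-Hochberg over all genes tested within each of 6 contrasts and a threshold of 0.05. RPKM is relative to each library's own total. Reads, totals and transcript lengths were recovered from the RPKM steps as the smallest whole length that made a gene's values whole reads within 0.001. A true length could be a multiple of it. The steps were tested on simulated data.

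The rule for named genes takes all 10 members in every comparison, and the 3 genes most like a profile. A wider list of biogenesis factors and cell type markers were not analysed here, because symbols could not be matched to the table's identifiers. The members and lists were chosen with earlier results of these data known. Alternatives covered the pseudocount (0.1, 1), the filter, the scaling, the variance trend, the samples fitted, the replicate block and leaving out each library.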

Additional observations from a re-analysis of the deposited data

Results flagged for a closer look

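The effect of UVA differed between cells with 4SU and cells without it for 8 of the 10 genes by limma's interaction term, where 24.8% of all genes passed, 14.1% below 0 and 10.7% above. The log2 value of the UVA effect with 4SU minus that without it was -0.84 for POLR1A (adjusted p = 0.000353), -0.45 for NCL (adjusted p = 0.035), -0.34 for DKC1 (adjusted p = 0.0058) and -0.32 for GNL3 (adjusted p = 0.0476). It was -0.29 for NOLC1 (adjusted p = 0.0269), -0.28 for NOP56 (adjusted p = 0.0297) and -0.28 for BOP1 (adjusted p = 0.0317). For NPM1 it was 0.26 (adjusted p = 0.0484, limma). The calls of POLR1A and DKC1 held when any 1 of the 12 libraries was left out, and the others were lost in 10 of the 12 fits for GNL3, 9 for NCL, 8 for NPM1, 8 for BOP1, 7 for NOP56 and 6 for NOLC1. Groups of 3 libraries were too small for a check of single libraries that stand apart.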

How the results depend on the processing

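The number of members past the threshold kept within 1.5 times of its value under every alternative run for 4SU+UVA against untreated, 4SU or UVA cells, and for UVA against untreated cells. For 4SU against untreated cells the count of 1 became 0 with no filter, with quantile normalisation, without the variance trend and with only the 2 groups fitted, 5 with median centring, and 0 to 3 when a library was left out. Over all genes 5.56% were higher and 9.38% lower with median centring. With a library left out 5.06 to 13.4% were higher and 1.21 to 4.47% lower. For the interaction the count of 8 became 5 with no filter, 3 with median centring, 2 without the variance trend, and 2 to 7 when a library was left out. Of all genes 6.84% passed above 0 and 9.22% below with no filter. With median centring it was 12.5% and 12.2%, and without the variance trend 9.7% and 12.8%. With a library left out it was 8.68 to 10.6% and 11.6 to 14.1%. With the replicate number as a block the counts were 8, 1, 0, 8, 9 and 8, as without it, and same-numbered libraries did not deviate together (median r 0.0053 over 18 pairs, range -0.046 to 0.068), so the numbers were not taken to pair the samples. Without NCL the members' share of reads differed by -0.054 percentage points in 4SU+UVA against untreated cells, -0.042 against 4SU cells and -0.062 against UVA cells. The share difference of UVA against untreated cells was 0.0043 and ran from -0.00035 to 0.010 with a library left out, the lowest without UVA replicate 2. None of the log2 differences that turned direction had passed the test. With median centring, 4SU against untreated cells gave -0.051 for NPM1, -0.036 for DKC1 and -0.051 for NOP56, and UVA against untreated cells gave -0.075 for FBL, -0.051 for DKC1, -0.035 for NOLC1 and -0.051 for BOP1. Quantile normalisation gave 0.041 for NCL with UVA. With a library left out, UVA against untreated cells ran from -0.035 to 0.036 for NPM1, -0.016 to 0.028 for FBL, -0.048 to 0.024 for GNL3 and -0.0027 to 0.060 for BOP1. In such fits 4SU against untreated cells ran from -0.036 to 0.0032 for FBL, and 4SU+UVA against 4SU cells from -0.15 to 0.0063 for NOP58. The causes were not tested. The planned edgeR and DESeq2 fits on recovered reads were not run, because the deposited values are RPKM, and the wider biogenesis list was not analysed here.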

Other observations

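Across the 12 libraries, the level of each gene was set against the mean of the other 9 on the log2 scale, as a description, since the libraries share groups. Pearson's r was 0.97 for NOLC1, 0.96 for NCL, 0.93 for POLR1A, 0.92 for BOP1 and 0.91 for GNL3. It was lower for NOP58 (0.82), DKC1 (0.78), NOP56 (0.74) and FBL (0.71), and it was -0.91 for NPM1. The profile most like the mean of the 10 genes, outside them, was that of ENSG00000114573.10 (r 0.995), and 953 of 8121 genes had an r above 0.9. The gene most like NPM1 was ENSG00000090612.22 (r 0.973), with 165 genes above 0.9.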
